A study of Rattus norvegicus with 60 samples.

Results

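The 9 genes Irs2, Ddit4, Sesn1, Tsc1, Tsc2, Rheb, Mtor, Rps6kb2 and Eif4ebp1 are regulators of insulin and mTOR signalling. They were followed in the CA1 field of the rat hippocampus, in naive, place and threat groups of a study of contextual threat recognition training. They were taken by symbol from the 22865 genes of the RNA data, and all 9 were among the 13153 genes that reached 1 FPKM (fragments per kilobase of transcript, scaled to the mapped fragments of the library) in at least 5 libraries. The animals were Sprague-Dawley rats aged 90 to 120 d, and the labels name no genetic change in any group. RNA came from 34 polyA+ libraries, of which 9 were naive. At 1 h there were 8 threat and 6 place libraries, and at 24 h 6 threat and 5 place libraries. The labels give the naive RNA libraries no time and do not say what place and threat animals experienced. Whether 2 replicates are 2 animals is not given either, and p-values then reflect only how far libraries scatter, which may be technical. For each time there were also 10 libraries of captured methylated DNA (MBD), from 3 naive, 4 place and 3 threat samples, beside 3 of uncaptured input DNA.

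Insulin and related growth factors act through receptor adaptors such as IRS2 to activate PI3-kinase and AKT. AKT restrains the TSC1 and TSC2 complex, which otherwise keeps the small GTPase RHEB off, and active RHEB switches on the kinase mTOR in complex 1. That complex phosphorylates the S6 kinases and the 4E-BP repressors, which raises translation. DDIT4 and SESN1 are stress-induced inhibitors of the pathway. In the hippocampus mTOR complex 1 is known for its part in the protein synthesis that lasting memory needs.

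The mRNAs of Irs2 and Ddit4 were higher at 1 h than in naive CA1 after both threat and place experience. With 1 library left out, the place call held in 25 of 34 fits for Irs2 and 11 of 34 for Ddit4. The threat calls held in all 34. At 24 h both were lower than at 1 h in threat libraries, while Rps6kb2 and Tsc1 were lower than in naive tissue in both 24 h groups. Mtor, Sesn1 and Eif4ebp1 passed the test in no comparison. None of the 9 passed the test between threat and place at either time. The 9 naive libraries themselves fell into a high and a low run for Rps6kb2 and Tsc2. Differences from naive are therefore also given by run where that moved a call. Against the naive libraries of the low run alone, Tsc1 passed in neither 24 h group. Rps6kb2 then passed in threat but not in place libraries at 24 h.

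Averaged over the 34 libraries, Rheb had the highest level of the 9 at 68.9 FPKM, followed by Ddit4 at 34.5 and Tsc2 at 19.6. Sesn1 stood at 12.3, Rps6kb2 at 9.88, Mtor at 9.10, Irs2 at 8.57, Tsc1 at 5.98 and Eif4ebp1 at 5.69 FPKM, a scale that is per length of transcript. The spread over all libraries, as the SD in percent of the mean, ran from 3.51% for Mtor to 37.6% for Rps6kb2. Ddit4 (18.9%), Tsc2 (16.1%) and Eif4ebp1 (15.8%) came next, and Irs2, Sesn1, Tsc1 and Rheb lay between 5.92% and 10.4%.

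**Figure D1:**
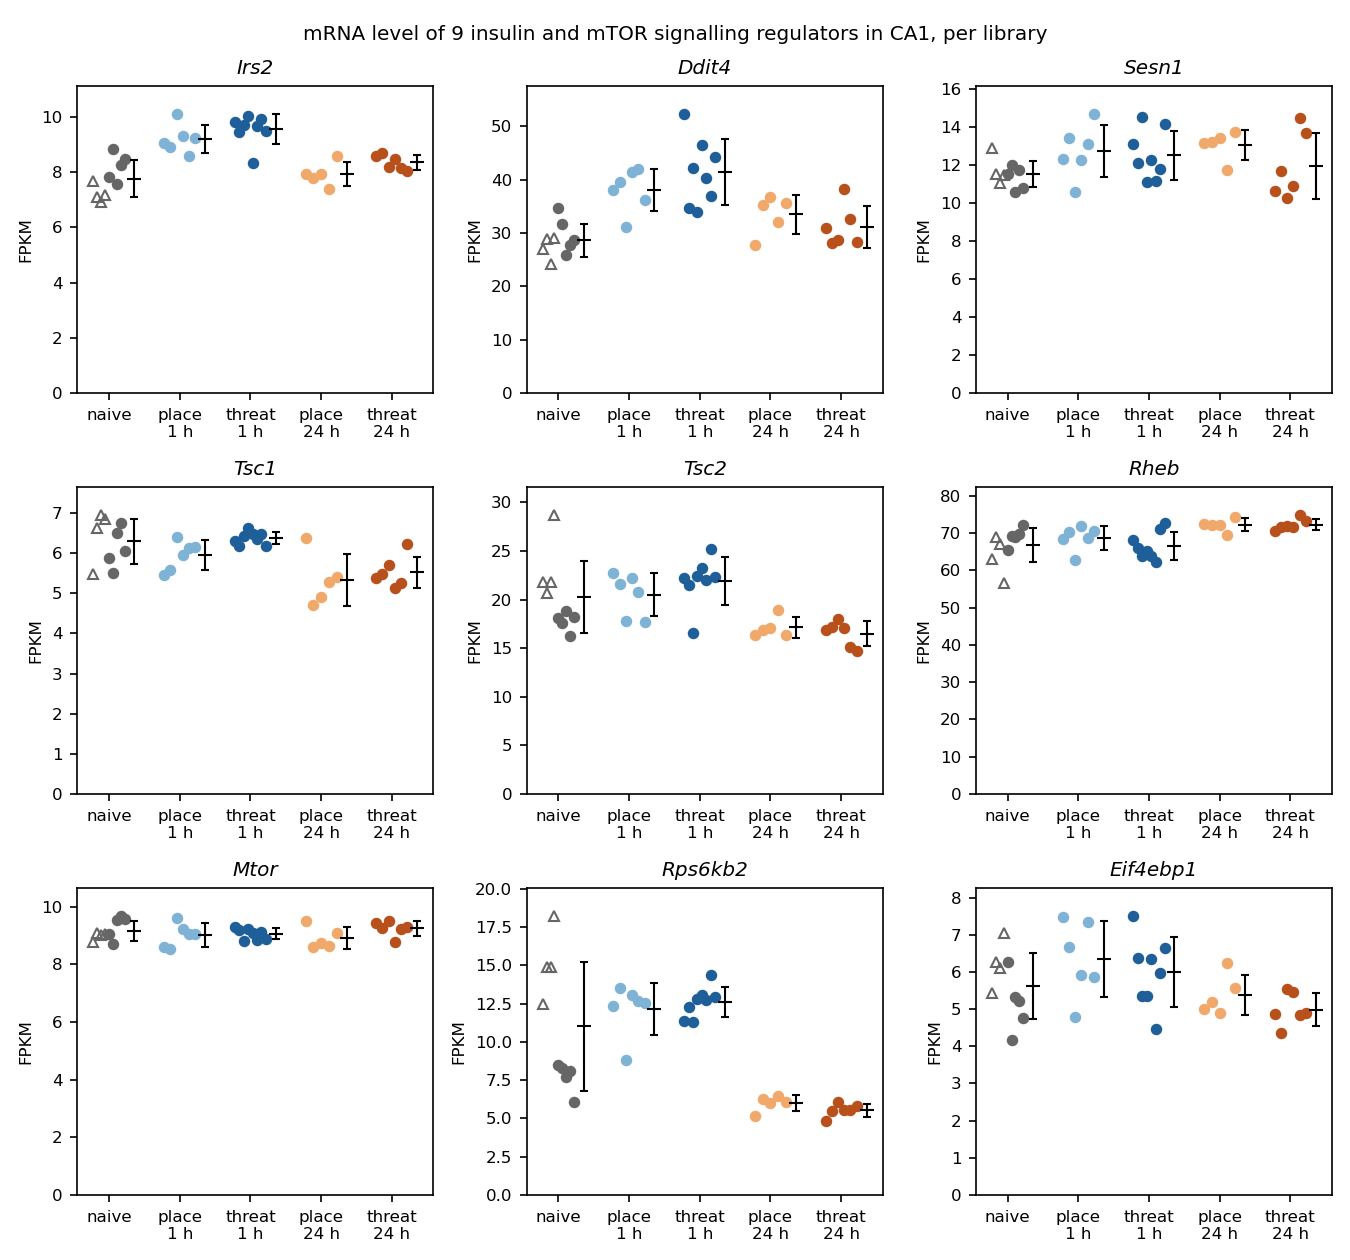
FPKM of the 9 genes (y axes, each from 0) in every RNA library by group (x axes); open triangles are naive replicates 1 to 4, filled grey circles naive replicates 5 to 9, and the bars beside the points are mean ± SD. Irs2 and Ddit4 are highest in the 1 h groups, Rps6kb2 lies between 4.81 and 6.48 FPKM in all 24 h libraries, and its naive libraries form a low run of 6.09 to 8.48 and a high run of 12.5 to 18.2 FPKM.

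The libraries held CA1 markers, with 7 of 8 listed genes found, 6 of them above 1 FPKM. Spink8 averaged 0.0548 FPKM, and Pou3f1 was not found. Their summed medians were 320 FPKM in naive, 345 in place 1 h and 286 in threat 1 h libraries, against 408 in place 24 h and 419 in threat 24 h libraries. Markers of CA2 and CA3, 7 of 9 above 1 FPKM, had group medians of 138 to 157 FPKM. Those of dentate granule cells, 3 of 6 above 1 FPKM, had 16.9 to 24.9 FPKM. Of 9 marker lists, choroid plexus varied most, from 2.54 to 6455 FPKM summed, with threat 1 h replicates 4 and 7 at 6455 and 3844 and every other library at 270 or less. Endothelial and mural markers, all 10 above 1 FPKM, had medians of 107 FPKM in both 24 h groups against 124 in naive, 130 in place 1 h and 129 in threat 1 h libraries. In these bulk tissue samples, fewer cells of a type and less RNA per cell cannot be told apart. The naive columns are listed in 2 runs, replicates 5 to 9 ahead of 1 to 4, which no label calls a batch. Differences below are in log2(FPKM + 1), which shrinks those of low genes, from a limma fit over all 13153 genes and 34 libraries, with Benjamini-Hochberg adjusted p and 0.05 as the threshold.

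Irs2 (ENSRNOG00000023509, chr16:83287185-83311239 in rn5, plus strand) encodes the adaptor that couples the insulin and IGF1 receptors to PI3-kinase. Its FPKM in naive libraries ran from 6.92 over a median of 7.68 to 8.83, in place 1 h libraries from 8.59 over 9.15 to 10.1, and in threat 1 h libraries from 8.32 over 9.69 to 10.05. The place 24 h libraries stood at 7.94, 7.78, 7.94, 7.39 and 8.58 FPKM, and the threat 24 h libraries at 8.05 to 8.68 with a median of 8.33. Thus 7 of 8 threat 1 h and 5 of 6 place 1 h libraries lay above the highest naive library, while the 24 h libraries overlapped the naive range.

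The rise of Irs2 over naive was 0.27 ± 0.04 (SE) in threat 1 h libraries (n = 8 and 9, limma adjusted p = 0.000456) and 0.22 ± 0.04 in place 1 h libraries (n = 6 and 9, limma adjusted p = 0.0361), 1.23-fold and 1.19-fold in mean FPKM. It passed against each naive run, by 0.36 and 0.31 over replicates 1 to 4 and by 0.20 and 0.15 over replicates 5 to 9. Without threat 1 h replicates 4 and 7, rich in choroid plexus transcripts, the threat difference was 0.25 (limma adjusted p = 0.00572). Against naive, the 24 h differences were 0.10 ± 0.04 in threat and 0.03 ± 0.05 in place libraries (limma adjusted p = 0.158 and 0.762). Against naive replicates 1 to 4 the threat 24 h difference was 0.19 and passed (limma adjusted p = 0.00296), and against 5 to 9 it was 0.02 (limma adjusted p = 0.883). From 1 h to 24 h Irs2 fell by 0.17 in threat (limma adjusted p = 0.00473) and by 0.19 in place libraries (limma adjusted p = 0.0118), where all 5 libraries at 24 h lay under the lowest of 1 h. The place 1 h call ended, with an adjusted p of up to 0.104, without naive replicate 5, 7 or 8 or without any one of the 6 place 1 h libraries.

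Ddit4 (ENSRNOG00000000577, chr20:31315030-31317123 in rn5, minus strand) encodes REDD1, a stress- and glucocorticoid-induced protein that acts through TSC2 to restrain mTOR complex 1. Naive libraries held 24.2 to 34.7 FPKM with a median of 28.7, place 1 h libraries 31.1 to 42.0 with a median of 38.8, and threat 1 h libraries 34.01 to 52.3 with a median of 41.3. At 24 h the place libraries stood at 27.7, 35.3, 36.8, 32.1 and 35.6 FPKM and the threat libraries at 28.1 to 38.2 with a median of 29.9. Above the highest naive library lay 6 of 8 threat 1 h and 5 of 6 place 1 h libraries, so the groups overlapped at their edges. In order of mean FPKM the groups were threat 1 h, place 1 h, place 24 h, threat 24 h and naive, and no 2 neighbours in that order differed past the threshold.

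In threat 1 h libraries Ddit4 was 0.51 ± 0.08 higher than in naive ones (n = 8 and 9, limma adjusted p = 0.000697), or 1.45-fold in mean FPKM. It passed against naive replicates 1 to 4 (0.58) and 5 to 9 (0.46) and without threat 1 h replicates 4 and 7 (0.58). In place 1 h libraries it was 0.40 ± 0.09 higher (n = 6 and 9, limma adjusted p = 0.0483). That call held in only 11 of 34 fits that left out 1 library, with adjusted p of 0.0376 to 0.162; those fits left out naive replicate 1, 2, 4 or 5, place 1 h replicate 3, threat 1 h replicate 1, 2, 4 or 7, place 24 h replicate 1 or threat 24 h replicate 4. It was also lost against naive replicates 1 to 4 alone (0.46, limma adjusted p = 0.123). From 1 h to 24 h Ddit4 fell by 0.39 ± 0.09 in threat libraries (limma adjusted p = 0.00121), and in place libraries the difference was -0.18 ± 0.10 (limma adjusted p = 0.233).

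The promoter of Ddit4 is shown because the gene was called at 1 h, as was Irs2, which has no matched entry. These are the 250 bases before the RefSeq start site (GRCr8, chr20:28437038-28437287, minus strand, 5′ to 3′), with each CpG in capitals.
Ddit4: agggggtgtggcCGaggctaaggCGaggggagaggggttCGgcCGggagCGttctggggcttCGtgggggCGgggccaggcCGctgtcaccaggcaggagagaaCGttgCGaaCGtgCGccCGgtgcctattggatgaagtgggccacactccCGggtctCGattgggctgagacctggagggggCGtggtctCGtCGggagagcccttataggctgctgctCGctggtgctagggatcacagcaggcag
They hold 19 CpG. In the 300-base window that adds the 50 bases after the start, the palindromic glucocorticoid response element, its shorter form AGAACA, the cyclic AMP element TGACGTCA and its shorter form TGACG were not found on either strand. Of 33469 promoter windows of that length, 0.0149%, 20.7%, 1.83% and 21.2% held these motifs, where the last 2 can overlap and so can the first 2.

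Sesn1 (ENSRNOG00000000302, chr20:48347551-48437686 in rn5, plus strand) encodes sestrin 1, a p53 target that restrains mTOR complex 1 through the GATOR proteins. Its FPKM ran from 10.6 to 12.9 in naive, from 10.6 to 14.7 in place 1 h, from 11.1 to 14.5 in threat 1 h, from 11.7 to 13.7 in place 24 h and from 10.2 to 14.5 in threat 24 h libraries. All groups overlapped, and the difference of lowest p was 0.17 ± 0.07 in place 24 h over naive libraries (n = 5 and 9, limma adjusted p = 0.162). Fitted with array weights that difference was 0.20 and passed (limma adjusted p = 0.0335). Against either naive run alone Sesn1 passed in none of the 4 groups.

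Tsc1 (ENSRNOG00000011470, chr3:12588006-12615637 in rn5, plus strand) encodes hamartin, which stabilises TSC2. Naive libraries held 5.49 to 6.95 FPKM with a median of 6.51, place 1 h libraries 5.46 to 6.41 with a median of 6.05 and threat 1 h libraries 6.18 to 6.62 with a median of 6.398. At 24 h the place libraries stood at 6.37, 4.71, 4.90, 5.29 and 5.42 FPKM and the threat libraries at 5.14 to 6.22 with a median of 5.43. In each 24 h group 4 libraries lay under the lowest naive library, and place 24 h replicate 1 lay inside the naive range.

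Tsc1 was 0.16 ± 0.05 lower in threat 24 h (n = 6 and 9, limma adjusted p = 0.0424) and 0.20 ± 0.05 lower in place 24 h (n = 5 and 9, limma adjusted p = 0.0245) than in naive libraries. Against naive replicates 1 to 4 it was 0.19 and 0.24 lower and passed in both, and against replicates 5 to 9 it was 0.13 and 0.18 lower and passed in neither (limma adjusted p = 0.386 and 0.245). The threat 24 h call was lost, with an adjusted p of up to 0.104, without naive replicate 2, 3, 4, 7 or 8 or threat 24 h replicate 1, 2, 4 or 5. The place 24 h call was lost without naive replicate 3 or 4 or place 24 h replicate 2, 3 or 5. From 1 h to 24 h Tsc1 fell by 0.18 ± 0.05 in threat libraries (limma adjusted p = 0.0101), a difference of -0.12 that missed the threshold after quantile normalization (limma adjusted p = 0.0692).

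The Tsc1 promoter, chosen after its values were seen because its start bin was the one of the 9 that held captured DNA at the level of input, reads as follows for the 250 bases before the RefSeq start site (GRCr8, chr3:32367447-32367696, plus strand), with CpG in capitals.
Tsc1: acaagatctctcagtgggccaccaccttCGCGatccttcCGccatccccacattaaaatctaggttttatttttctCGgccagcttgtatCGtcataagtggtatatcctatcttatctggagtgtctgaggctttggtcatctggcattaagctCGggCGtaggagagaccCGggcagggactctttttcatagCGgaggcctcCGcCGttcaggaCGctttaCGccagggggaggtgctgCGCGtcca
It holds 15 CpG, within the range of the 7 matched members, from 14 in Mtor, whose start bin was near empty of captured DNA, to 34 in Rheb. Start bins were placed by the gene starts in rn5, and the bases shown by the RefSeq start in GRCr8. Whether the Tsc1 start bin covers these bases was not tested. The window of 300 bases held TGACG, read on the minus strand, 160 bases before the start and the FOXO motif GTAAACA on the plus strand at base 37 after it. GTAAACA was in 3.78% of all 33469 windows.

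Tsc2 (ENSRNOG00000011375, chr10:13778991-13813550 in rn5, minus strand) encodes tuberin, the GTPase-activating protein that turns RHEB off. Its 3' end overlaps that of Pkd1 on the other strand, which averaged 7.15 FPKM, and whether counting used strand is not given in the sources used here. The naive libraries 1 to 4 held 21.8, 20.7, 21.8 and 28.7 FPKM and 5 to 9 held 18.1, 17.6, 18.9, 16.3 and 18.2, so the runs did not overlap. Place 1 h libraries ran from 17.7 over a median of 21.2 to 22.8 and threat 1 h libraries from 16.6 over 22.3 to 25.2 FPKM. At 24 h the place libraries held 16.4, 16.9, 17.1, 18.9 and 16.4 FPKM and the threat libraries 14.7 to 18.0 with a median of 17.01. Both 24 h groups overlapped naive replicates 5 to 9 and lay under replicates 1 to 4.

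Tsc2 was 0.26 ± 0.09 lower in threat 24 h than in naive libraries (n = 6 and 9, limma adjusted p = 0.0434), with 0.46 against replicates 1 to 4 (limma adjusted p = 0.000334) and 0.11 against replicates 5 to 9 (limma adjusted p = 0.653). That call was lost, with an adjusted p of up to 0.109, without any one of naive replicates 1 to 4 or threat 24 h replicate 1, 2, 4, 5 or 6. In place 24 h libraries the difference from naive was -0.21 ± 0.09 (limma adjusted p = 0.167), with -0.41 against replicates 1 to 4 (limma adjusted p = 0.00212) and -0.05 against 5 to 9 (limma adjusted p = 0.828). Threat 1 h libraries were 0.28 above naive replicates 5 to 9 (limma adjusted p = 0.00620) and -0.08 from replicates 1 to 4 (limma adjusted p = 0.865). From 1 h to 24 h Tsc2 fell by 0.38 ± 0.09 in threat libraries (n = 6 and 8, limma adjusted p = 0.00138), a comparison without naive libraries that held in 34 of 34 fits leaving out 1 library. The place difference was -0.24 ± 0.10 (limma adjusted p = 0.103). Leaving out 1 library cannot reveal a shift shared by all libraries of a time, which cannot be told from time here. Tsc2 averaged 23.3 and 17.8 FPKM in the 2 naive runs, beside 21.9 in threat 1 h and 16.5 in threat 24 h libraries.

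Rheb (ENSRNOG00000050578, chr4:6843843-6889004 in rn5, plus strand) encodes the GTPase that activates mTOR complex 1. Naive libraries held 56.6 to 72.2 FPKM with a median of 69.0, place 1 h libraries 62.8 to 71.9 with a median of 69.4 and threat 1 h libraries 62.2 to 72.8 with a median of 65.6. The place 24 h libraries stood at 72.6, 72.3, 72.2, 69.6 and 74.5 FPKM and the threat 24 h libraries at 70.6 to 74.9 with a median of 71.7. The 24 h libraries were thus near the top of the range of the other groups and varied little. Rheb was 0.12 ± 0.04 higher at 24 h than at 1 h in threat libraries (n = 6 and 8, limma adjusted p = 0.0340), but 0.04 after quantile normalization (limma adjusted p = 0.504). Leaving out threat 1 h replicate 3, 4, 5 or 6 or threat 24 h replicate 5 or 6 also ended the call, with an adjusted p of up to 0.0761. Over naive it differed by 0.11 ± 0.04 at 24 h in both threat and place libraries (limma adjusted p = 0.0688 and 0.121). Against naive replicates 1 to 4 both were 0.18 and passed (limma adjusted p = 0.00583 and 0.0104), and against 5 to 9 both were 0.06 (limma adjusted p = 0.573 and 0.556).

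Mtor (ENSRNOG00000009615, chr5:168920401-169030568 in rn5, plus strand) encodes the kinase itself. Its group means lay between 8.92 ± 0.39 (place 24 h, SD, n = 5) and 9.25 ± 0.26 FPKM (threat 24 h, SD, n = 6), and all groups overlapped. Over the 9 contrasts no adjusted p of Mtor fell under 0.05. Against naive its differences were -0.01 ± 0.03 in threat 1 h, -0.02 ± 0.03 in place 1 h, 0.01 ± 0.03 in threat 24 h and -0.04 ± 0.03 in place 24 h libraries. The 95% interval of the threat 1 h against place 1 h difference was -0.06 to 0.07.

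Rps6kb2 (ENSRNOG00000021689, chr1:226276853-226283539 in rn5, minus strand) encodes S6 kinase 2, which phosphorylates ribosomal protein S6 downstream of mTOR complex 1. Naive replicates 1 to 4 held 12.5, 14.9, 14.9 and 18.2 FPKM, and naive replicates 5 to 9 held 8.48, 8.27, 7.72, 8.08 and 6.09. Place 1 h libraries held 12.3, 13.5, 8.81, 13.1, 12.6 and 12.6 FPKM, and threat 1 h libraries 11.3 to 14.4 with a median of 12.8. At 24 h the place libraries stood at 5.13, 6.27, 5.99, 6.48 and 6.07 FPKM and the threat libraries at 4.81, 5.46, 6.06, 5.53, 5.58 and 5.84. All 11 libraries of 24 h lay under every 1 h library, and the threat ones under every naive library too. The 1 h libraries lay above naive replicates 5 to 9, place 1 h replicate 3 only just, and overlapped replicates 1 to 4.

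From 1 h to 24 h Rps6kb2 fell by 1.05 ± 0.15 in threat (n = 6 and 8, limma adjusted p = 5.28e-06) and by 0.90 ± 0.16 in place libraries (n = 5 and 6, limma adjusted p = 0.000943), to 0.440 and 0.493 of the mean FPKM at 1 h. Both held in 34 of 34 fits leaving out 1 library, and without threat 1 h replicates 4 and 7 the threat difference was -1.02. Such fits cannot reveal a shift shared by all libraries of a time, which cannot be told from time here. Below naive, Rps6kb2 was lower by 0.80 ± 0.14 in threat 24 h (limma adjusted p = 0.000665) and by 0.71 ± 0.15 in place 24 h libraries (limma adjusted p = 0.00661). These sizes depended on the naive run. Against replicates 1 to 4 they were -1.29 and -1.20, and against replicates 5 to 9 -0.41 (limma adjusted p = 0.0124) and -0.32 (limma adjusted p = 0.147). At 1 h the differences from naive were 0.25 ± 0.13 in threat and 0.20 ± 0.14 in place libraries (limma adjusted p = 0.340 and 0.701). They changed sign with the run, from -0.24 and -0.29 against replicates 1 to 4, where neither passed, to 0.64 and 0.59 against replicates 5 to 9, where both did. Endothelial marker medians were also lower and CA1 marker medians higher at 24 h, as given above. In naive replicates 1 to 4 and 5 to 9 the endothelial medians were 137 and 118 FPKM. Dentate granule medians were 29.5 and 15.8 FPKM and oligodendrocyte medians 3013 and 2394 FPKM in these runs. CA2 and CA3 and astrocyte medians were also higher in replicates 1 to 4, while blood, choroid plexus and microglia medians were lower. The CA1 medians were 341 and 320 FPKM, with sums of 150 to 411 in replicates 1 to 4 and 278 to 470 in 5 to 9. The part of these markers in the differences was not tested.

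The promoter of Rps6kb2, chosen after its differences were seen to be the largest of the 9, is given for the 250 bases before the RefSeq start site (GRCr8, chr1:210887512-210887761, minus strand), with CpG in capitals.
Rps6kb2: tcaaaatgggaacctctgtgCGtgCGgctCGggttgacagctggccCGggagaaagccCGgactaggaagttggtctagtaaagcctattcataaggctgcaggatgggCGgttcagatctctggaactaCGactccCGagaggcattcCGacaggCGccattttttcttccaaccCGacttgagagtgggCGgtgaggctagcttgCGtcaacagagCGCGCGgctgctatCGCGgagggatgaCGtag
It holds 19 CpG. TGACG was found on the minus strand 43 bases and on the plus strand 8 bases before the start, a motif that 21.2% of all windows held.

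Eif4ebp1 (ENSRNOG00000012582, chr16:68580280-68593651 in rn5, minus strand) encodes 4E-BP1, the repressor of the cap-binding protein eIF4E that mTOR complex 1 switches off. Its FPKM ran from 4.16 to 7.04 in naive, from 4.78 to 7.48 in place 1 h, from 4.47 to 7.51 in threat 1 h, from 4.91 to 6.25 in place 24 h and from 4.36 to 5.53 in threat 24 h libraries. All groups overlapped. The difference of lowest p was -0.22 ± 0.09 from threat 1 h to threat 24 h (n = 6 and 8, limma adjusted p = 0.0740), which passed at -0.27 with array weights (limma adjusted p = 0.00733) or without threat 1 h replicate 6 (limma adjusted p = 0.0257). Threat 24 h libraries were 0.27 below naive replicates 1 to 4 (limma adjusted p = 0.0491) and 0.03 below replicates 5 to 9 (limma adjusted p = 0.937).

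**Figure D2:**
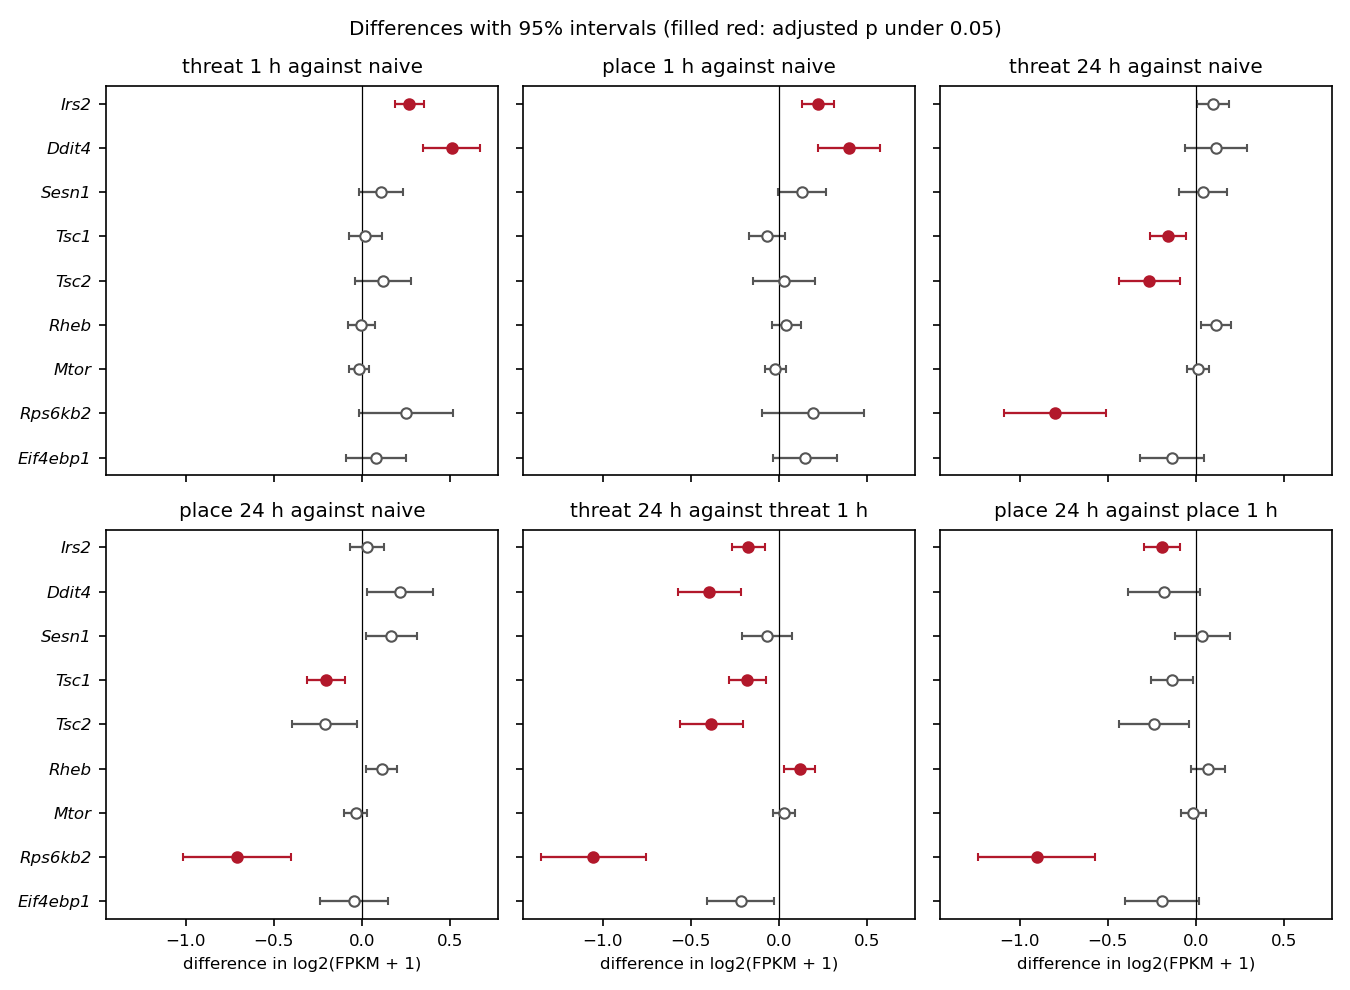
Differences in log2(FPKM + 1) (x axes) of the 9 genes in 6 comparisons, with 95% intervals; filled red points have a limma adjusted p under 0.05. Rps6kb2 stands furthest from 0 in the 4 comparisons that involve 24 h libraries, at -1.05 to -0.71, and Irs2 and Ddit4 are the genes past the threshold at 1 h.

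Over the 9 genes, 2 of 9 rose in threat 1 h over naive libraries, where 0.928% of all genes tested passed, and 2 of 9 rose in place 1 h libraries, where 0.129% passed. At 24 h 3 of 9 fell in threat (background 10.1%) and 2 of 9 in place libraries (background 5.05%). Between 1 h and 24 h 5 fell and 1 rose in threat libraries, where 29.3% of all genes passed, and 2 fell in place libraries, where 13.3% passed. The median difference of the 9 was -0.18 in both of these comparisons, beside -0.01 and 0.01 over all genes tested. Against naive the medians were 0.11 (threat 1 h), 0.13 (place 1 h), 0.01 (threat 24 h) and -0.04 (place 24 h), beside 0.02, 0.00, 0.01 and 0.02 over all genes. The comparisons with naive tissue share the same 9 naive libraries, and those across time share the libraries of each group. Within them the count at 24 h moved with the naive run. Against replicates 1 to 4, 6 of 9 passed in threat and 4 of 9 in place libraries. Against replicates 5 to 9 these were 1 and 0. The share of all genes called against each run is not given here, so these counts are not read as particular to the 9. Rps6kb2, Tsc1, Tsc2 and Rheb were called in both groups against replicates 1 to 4, and Irs2 and Eif4ebp1 in threat libraries.

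**Figure D3:**
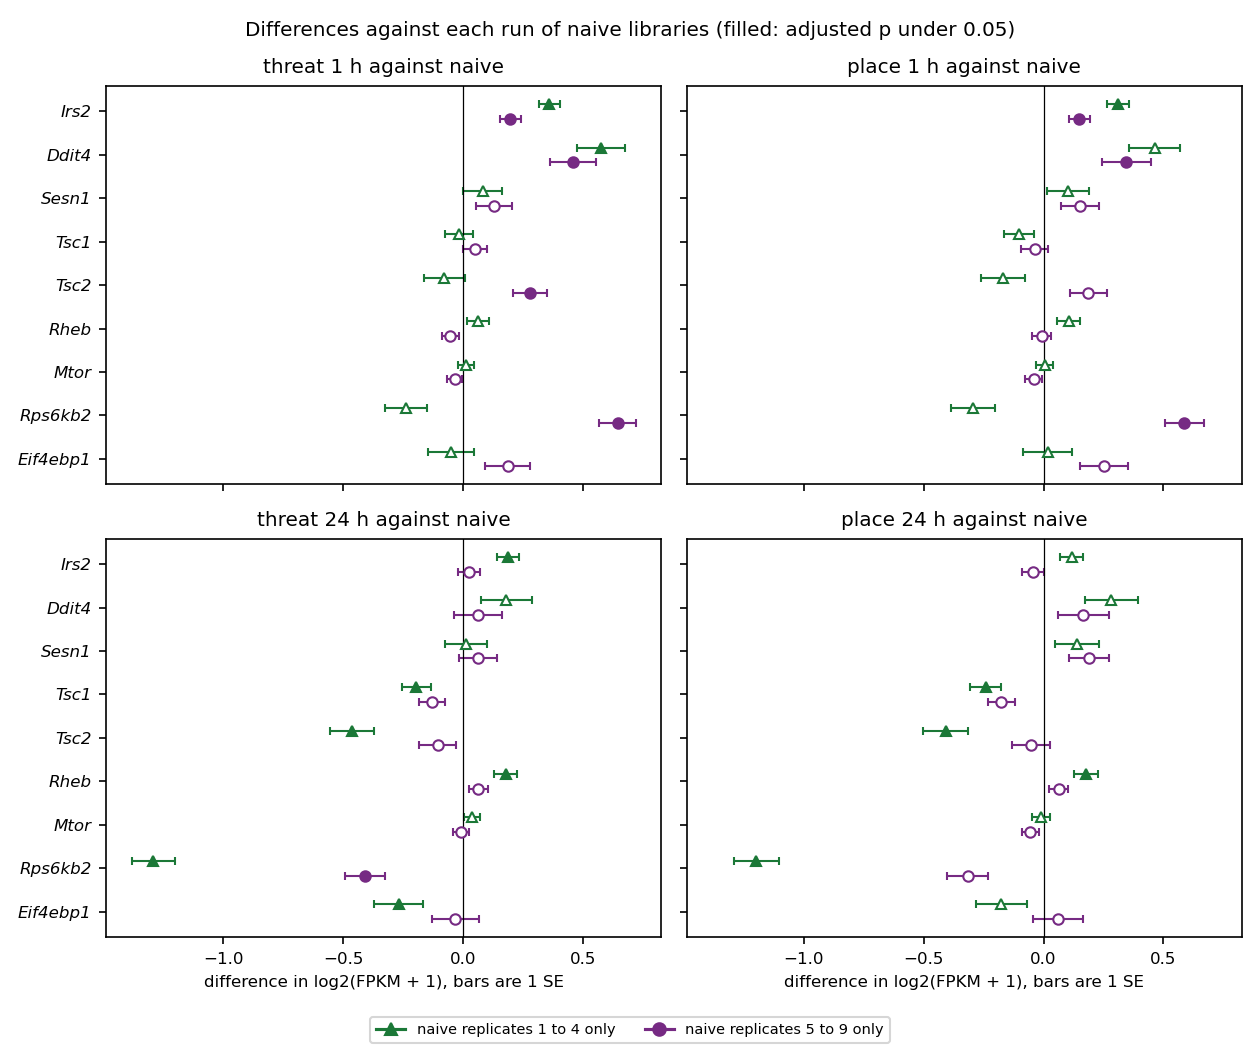
Differences in log2(FPKM + 1) from naive libraries (x axes, bars are 1 SE) when only naive replicates 1 to 4 (green triangles) or only 5 to 9 (purple circles) were used; filled points have a limma adjusted p under 0.05. Irs2 is filled against both runs in both 1 h panels, while Rps6kb2 changes sign between the runs there, from -0.24 to 0.64 in threat 1 h.

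Threat and place libraries were also compared directly at each time. By limma 0 of 9 genes passed at 1 h, at 24 h or in the interaction of experience and time, and 0 had an unadjusted p under 0.05 in any of the 3. Over all genes 0 passed in each (0% of 13153), with 560, 381 and 360 at an unadjusted p under 0.05. At 1 h the largest difference was Ddit4, 0.11 ± 0.09 higher in threat libraries with a 95% interval of -0.07 to 0.29. For Irs2 it was 0.05 with an interval of -0.04 to 0.14, and for Rps6kb2 0.06 with -0.24 to 0.35. At 24 h the largest was Sesn1, -0.13 ± 0.08 with an interval of -0.28 to 0.03. In the interaction Ddit4 had -0.21 ± 0.13, with an interval of -0.49 to 0.06. These intervals do not show that the 2 experiences act alike.

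A list of 119 other genes of the pathway was read from 8 role lists, of which 110 were tested. At 1 h Sesn2, a stress-induced sestrin that inhibits mTOR complex 1, was the single gene called in threat over naive libraries, from 3.11 ± 0.27 (SD, n = 9) to 3.78 ± 0.32 FPKM (SD, n = 8), a rise of 0.22 ± 0.05 (limma adjusted p = 0.0173). It was the 1 of 14 in the AMPK and sestrin list. Against naive no pathway gene was called without threat 1 h replicates 4 and 7, or when the other groups were left out of the model, so the Sesn2 call was lost in both. The list as a whole had 0.909% of its genes called, beside 0.928% of all genes, and in place 1 h libraries 0 of 110.

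At 24 h 4 of 110 rose and 8 fell in threat libraries against naive, 10.9% beside 10.1% of all genes. The 4 that rose were Eif4e (0.19), the cap-binding protein, Rraga (0.17), a Rag GTPase of the lysosomal amino acid sensor, Mapkap1 (0.16), a subunit of mTOR complex 2, and the adaptor Grb2 (0.13). Those that fell included Eif4ebp3 (-0.45), a relative of Eif4ebp1, Prkag1 (-0.28), a subunit of AMPK, Pik3cd (-0.26), a catalytic subunit of PI3-kinase, Akt2 (-0.22), the autophagy kinase Ulk1 (-0.21) and Telo2 (-0.18), which helps assemble mTOR complexes. In place 24 h libraries 0 rose and 7 fell, 6.36% beside 5.05%, among them Sesn3 (-0.29), Ulk1 (-0.24) and Telo2 (-0.22). These counts were 33 and 28 against naive replicates 1 to 4 and 1 and 0 against replicates 5 to 9, where the share of all genes called is not given here.

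From threat 1 h to threat 24 h 11 of 110 rose and 22 fell, 30.0% beside 29.3% of all genes. The list of translation and other outputs had 3 higher and 7 lower of 20, with Eif4b (0.23), an initiation factor, and Eif4e (0.20) higher and the kinases Eef2k (-0.34), which slows elongation, and Ulk1 (-0.29) lower. Of the amino acid sensing list 4 of 22 were higher and 4 lower, with Nprl2 (-0.23) and Nprl3 (-0.27), subunits of the inhibitory GATOR1 complex, among the lower. The sestrins Sesn2 (-0.18) and Sesn3 (-0.43) were lower too. In place libraries 6 rose and 10 fell, 14.5% beside 13.3%, among them Eif4b (0.25), Eif4ebp2 (-0.21) and Nprl3 (-0.31). Rps6kb1, the paralog of Rps6kb2, looked up after the values of Rps6kb2 were seen, was called in no comparison, with means of 7.13 to 7.42 FPKM in the 5 groups.

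The genes most like each of the 9 over the 34 libraries were named by Pearson correlation of log2(FPKM + 1), given as a description because libraries of a group share their condition. Irs2 was most like Nr4a3, an immediate early nuclear receptor (r = 0.84, and 0.62 with group means removed), then Klf10 (0.74) and Arl5b (0.73). With the means of the naive runs removed too, Nr4a3 had 0.50, Klf10 0.23 and Arl5b 0.49. Ddit4 was most like Sgk1, a glucocorticoid-induced kinase (0.83, and 0.64 with group means removed), then Pdk4 (0.83), which inhibits pyruvate dehydrogenase, and Plekhf1 (0.81). Sgk1 averaged 19.4 ± 3.95 FPKM in naive (SD, n = 9), 37.2 ± 5.76 in place 1 h (SD, n = 6) and 38.4 ± 12.7 in threat 1 h libraries (SD, n = 8). At 24 h it stood at 30.0 ± 7.33 in place (SD, n = 5) and 19.7 ± 4.73 in threat libraries (SD, n = 6).

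Rps6kb2 was closest to Wsb1, a ubiquitin ligase subunit (0.98, 0.95 with group means removed, and 0.88 with the means of the naive runs removed too), and then to Ankzf1 (0.98) and Ssh3 (0.98). With both sets of means removed Ankzf1 had 0.77 and Ssh3 0.81. Wsb1 stood at 44.4 ± 4.42 FPKM in naive replicates 1 to 4 (SD, n = 4), 28.5 ± 2.33 in 5 to 9 (SD, n = 5) and 22.4 ± 0.96 in threat 24 h libraries (SD, n = 6). Ssh3 lies on the same chromosome at chr1:226382006-226389511 in rn5, as does Pitpnm1 (chr1:226219372-226232745), the gene most like Tsc2 (0.95, on another chromosome).

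For the other genes the closest were Ralgapa1 (0.86) for Tsc1, Mapk9 (0.79) for Mtor, an unnamed gene (0.86) and then Gtpbp6 (0.84) for Eif4ebp1, Fam103a1 (0.78) for Rheb and Smad3 (0.75) for Sesn1. Among the 9 themselves the closest pair was Rps6kb2 and Tsc2 (r = 0.84, and 0.71 with group means removed), but with the means of the naive runs removed too it had 0.51 and Mtor and Tsc1 were the closest at 0.74. Irs2 and Ddit4 had r = 0.61 over all libraries but -0.03 with group means removed. Mtor and Tsc1 had 0.47 over all and 0.64 with group means removed.

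**Figure D4:**
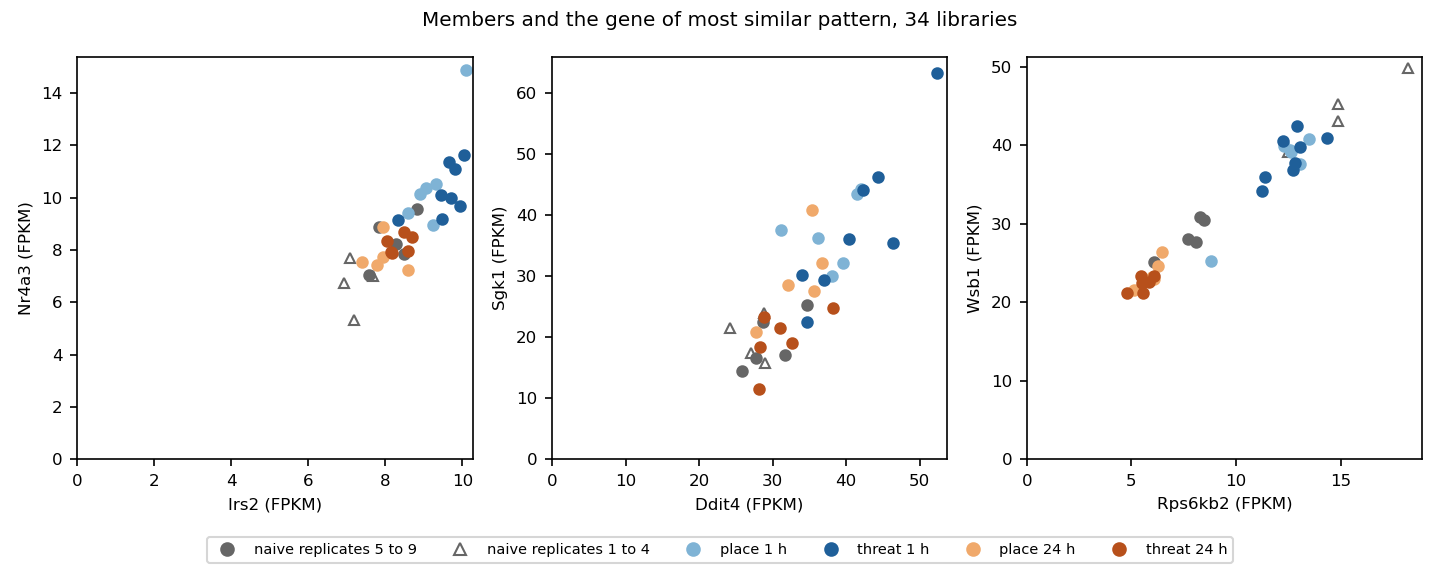
FPKM of Irs2, Ddit4 and Rps6kb2 (x axes) against that of the gene most like each (y axes) in the 34 libraries, coloured by group, with naive replicates 1 to 4 as open triangles. Rps6kb2 and Wsb1 lie along a line from the 24 h libraries to naive replicates 1 to 4, while Irs2 with Nr4a3 and Ddit4 with Sgk1 are highest in 1 h libraries.

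Captured methylated DNA was read in bins of 500 nt over each gene and the 2000 bases before it, in RPKM, the deposited reads per kilobase, scaled to the reads of the library. At 8 of the 9 gene starts the bin was almost empty of captured DNA at 1 h, with means of 0 to 0.0138 RPKM over the 10 captured libraries, beside 0.208 to 0.608 in the 3 input libraries. For Ddit4 they were 0.00489 and 0.608 RPKM, and for Rps6kb2 0 and 0.357. Tsc1 was the exception, with 0.817 beside 0.784 at 1 h and 0.279 beside 0.361 at 24 h. Over all 13153 tested genes the start bin had less captured than input signal for 83.4% at 1 h and 80.7% at 24 h. The median start bin of these genes held 0.0141 RPKM of captured and 0.372 RPKM of input DNA at 1 h. Near-empty starts were thus common among all genes at 1 h.

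Captured DNA was unevenly spread over the genes. At 1 h its mean over each region was under input for Irs2 (0.332 beside 0.698 RPKM) and Rheb (0.0953 beside 0.263). The same held for Rps6kb2 (0.469 beside 0.492) and Ddit4 (0.0344 beside 0.389), and the other genes lay above input. At 1 h 126 bins of 8 of the genes reached 1 RPKM and 2 times input and were tested, as were 6.04% of all bins. Among the 126 were 53 of 226 bins of Mtor, 28 of 75 of Tsc2, 20 of 185 of Sesn1, 2 of 96 of Rheb and 1 of 53 of Irs2, with 0 of 9 of Ddit4. The highest was an Mtor bin at chr5:169018001-169018500 in rn5, at 7.42, 8.76 and 8.99 RPKM in naive, 8.96, 7.50, 8.66 and 10.3 in place and 13.3, 12.3 and 8.35 in threat 1 h libraries, with input at 1.16 to 1.401. The highest of Tsc2 was at chr10:13796001-13796500, with a mean of 5.89 RPKM. At 24 h 11 bins of 5 genes were tested, as were 1.47% of all bins, and the same Mtor bin averaged 1.12 RPKM. The times were captured in separate sets of libraries, and levels are not compared between them.

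**Figure D5:**
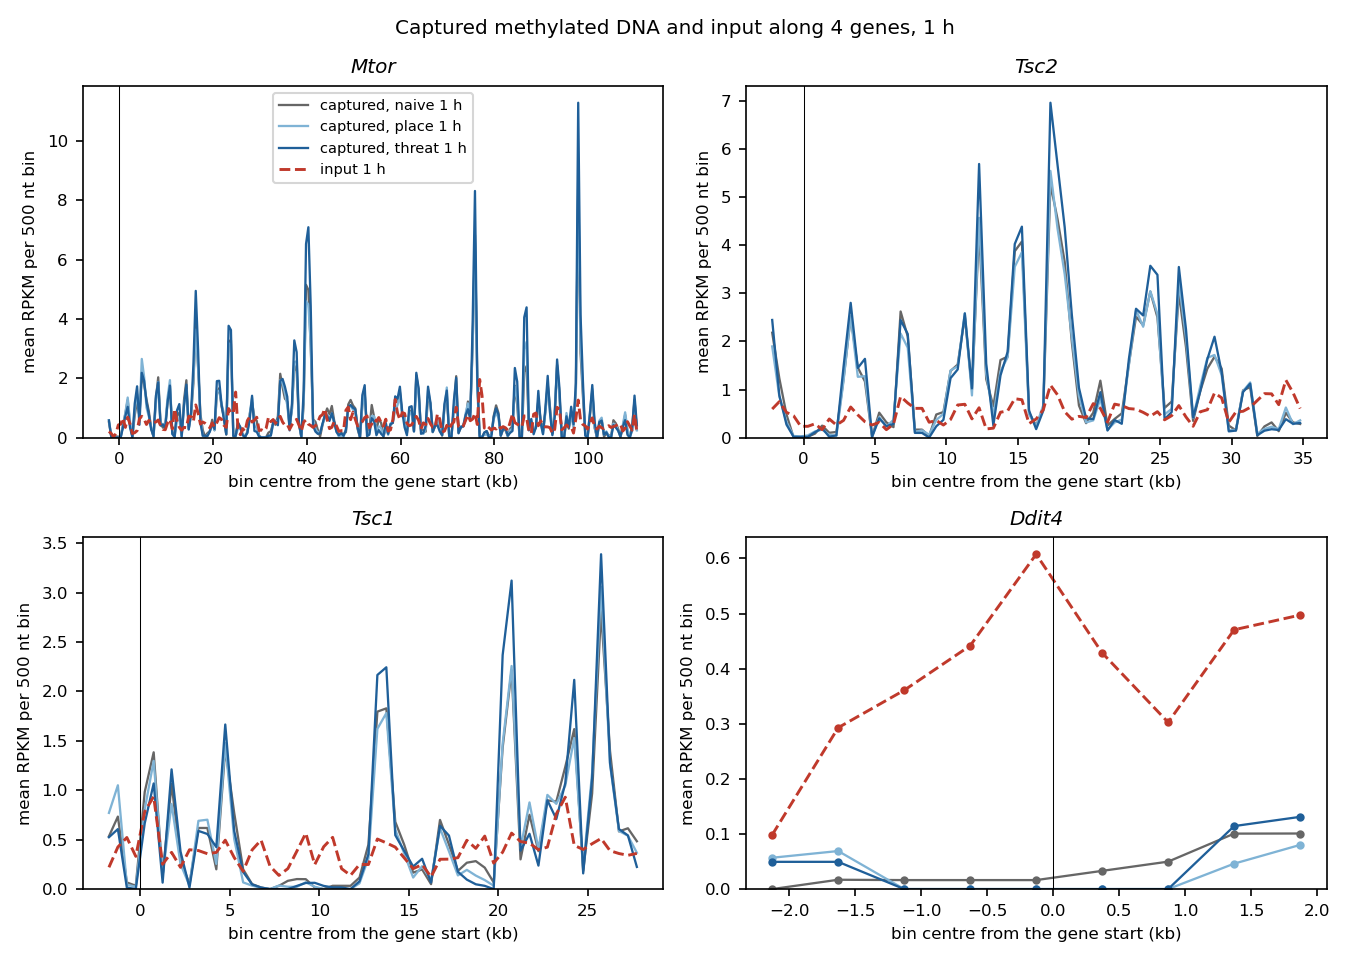
Mean RPKM per 500 nt bin at 1 h (y axes) by distance of the bin centre from the gene start in kb (x axes) for Mtor, Tsc2, Tsc1 and Ddit4; solid lines are captured libraries by group and the dashed line is input. Captured signal is near 0 around the starts of Mtor, Tsc2 and Ddit4, rises at points within the bodies up to 11.3 RPKM in the threat 1 h mean of Mtor, and stays under input along all of Ddit4.

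In limma on log2(RPKM + 0.25), 0 of 126 member bins passed at 1 h in threat against naive (0.016% of all tested bins passed), place against naive (0.00285%) or threat against place libraries (0.0174%). Of the 126, 20, 4 and 17 had an unadjusted p under 0.05, beside 15.4%, 3.34% and 9.98% of all tested bins. The edgeR test on recovered reads also called 0 of the 126. The 126 bins had a median difference of 0.18 in threat against naive libraries, beside 0.17 over all bins tested. At 24 h 0 of 11 passed in threat against naive (0.0105%) and place against naive libraries (0.0082%), and 0 by edgeR. Of the 11, 2 and 0 had an unadjusted p under 0.05, beside 23.1% and 4.28% of all tested bins. In threat against place libraries at 24 h 1 of 11 passed, where 7.7% of all bins did and the median of all bins was 0.28, beside 0.24 for the 11. It lay in the body of Tsc2 (chr10:13790001-13790500 in rn5), with 1.06, 1.03, 1.23 and 0.985 RPKM in place, 1.76, 2.01 and 1.65 in threat and 1.26, 1.21 and 1.17 in naive 24 h libraries. Its difference was 0.63 ± 0.15 (n = 3 and 4, limma adjusted p = 0.0296), and 0.41 by edgeR, which did not call it (adjusted p = 0.660). At 1 h the same bin held 2.25 to 3.27 RPKM in the 10 captured libraries.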

How the data were processed

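The RNA data are FPKM per gene and the MBD data a coverage signal in RPKM per bin of 500 nt, both as deposited by the authors. TopHat 1.4.0, Bowtie, DESeq2 and edgeR and the builds mm10 and rn5 are named in the submitters' processing notes without their roles. The coordinates fit rat rn5, and whether replicates were pooled is not stated. The polyA+ libraries were directional, and RIN exceeded 8, per the labels' protocols. The members and all gene lists were chosen with earlier results of these data known, and so were the naive runs.

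RNA was tested with limma 3.58.1 (R 4.3.3, trend) on log2(FPKM + 1) in 1 fit of 34 libraries, with a mean for each of 5 groups (29 residual df). Genes at 1 FPKM in at least 5 libraries entered. MBD bins entered with a captured mean of 1 RPKM and 2 times input, 350378 of 5805202 at 1 h and 85335 at 24 h, with 1 limma fit per time, after 21 short bins were dropped. The RPKM steps gave whole reads for 100% of values (within 0.1 reads), 31.4 to 59.5 M per library, and edgeR 4.0.16 was run on these. The RNA table gives no read totals, so its depth is unknown. Named genes were the 9 members, up to 4 called genes of lowest p per pathway list and comparison, and the 3 genes most like each member; promoters were to be shown for members called at 1 h. One gene that the rule names is not reported here. The RNA limma fit alone was run on simulated data, with known changes in threat 1 h against naive and no shift between naive runs. The MBD fits and the edgeR test were not simulated. Promoters come from RefSeq (GRCr8), with 7 of 9 members matched and not Irs2 and Eif4ebp1.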

Additional observations from a re-analysis of the deposited data

Results flagged for a closer look

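In groups of 4 to 10 libraries, 6 values of the 9 genes stood apart from the rest of their group by Dixon's test at its 95% critical value. With 45 such groups examined, chance alone flags about 1 in 20. Irs2 was 8.32 FPKM in threat 1 h replicate 5, with the nearest library at 9.44. Rps6kb2 was 8.81 FPKM in place 1 h replicate 3, with the nearest at 12.3, and without that library its place 24 h against place 1 h difference was -0.99 in place of -0.90. Mtor was 8.77 FPKM in threat 24 h replicate 4, with the nearest at 9.24. Tsc2 stood apart 3 times, at 28.7 FPKM in naive replicate 4 (nearest 21.8), 18.9 in place 24 h replicate 4 (nearest 17.1) and 16.6 in threat 1 h replicate 3 (nearest 21.5). Without naive replicate 4 the place 24 h against place 1 h difference of Tsc2, which is made without naive libraries, had the same size of -0.24 and a limma adjusted p of 0.0432 in place of 0.103.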

How the results depend on the processing

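Of 891 fold changes of the 9 genes recomputed under the other settings, 821 kept their direction and side of the threshold, 25 were no longer called, 17 became called and 28 changed sign. Of 2754 with 1 library left out, 2657 kept both, 61 were lost, 4 gained and 32 changed sign. None of the 60 sign changes was of a fold called in either fit, and the cause was not tested. Of same-numbered pairs, 17 of 58 RNA pairs deviated together at r over 0.1 (range -0.50 to 0.59), and 0 of 18 MBD pairs. Differently numbered pairs were not computed, so these counts cannot show whether the numbers pair libraries. The fits reported use no pairing, and counts with the replicate block are given below.

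Members called in place 1 h against naive (2 as reported) numbered 0 without a filter, 0 with only the groups compared, 0 with the replicate block, and 1 with median-ratio scaling, quantile normalization or naive replicates 1 to 4. In threat 24 h against naive (3) there were 1 without a filter, 1 with only the groups compared, 6 against naive replicates 1 to 4 and 1 against 5 to 9. In place 24 h against naive (2) they were 0 with only the groups compared, 4 with array weights, 4 against replicates 1 to 4 and 0 against 5 to 9. Against replicates 5 to 9 threat 1 h gave 4, and array weights gave 4 in place 24 h against place 1 h. With 1 library left out the ranges were 0 to 2 (place 1 h), 1 to 2 (place 24 h), 1 to 4 (threat 24 h), each against naive, and 5 to 6 (threat 24 h against threat 1 h). Over all genes, the same fits called 0 to 38, 235 to 1121, 769 to 1838 and 3271 to 4104, in that order. All-gene counts under the other settings are not given here.

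Pathway genes called in threat 1 h against naive (1) were 0 with a filter of 5 FPKM, 2 with median-ratio scaling, 0 with only the groups compared, 3 with array weights, 16 against naive replicates 5 to 9, 0 without threat 1 h replicates 4 and 7, and 1 to 6 with 1 library left out. In place 1 h (0) they were 1 with array weights, 9 against replicates 5 to 9 and 0 to 1 with a library left out. In threat 24 h (12) they were 7 with only the groups compared, 33 against replicates 1 to 4, 1 against 5 to 9 and 7 to 14 with a library left out. In place 24 h (7) they were 0 with only the groups compared, 15 with array weights, 13 with the replicate block, 28 against replicates 1 to 4, 0 against 5 to 9 and 3 to 12 with a library left out. Array weights gave 36 in place 24 h against place 1 h (16). Over all genes, threat 1 h fits with 1 library left out called 37 to 618 against naive. All-gene counts under the other settings are not given here.

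With the replicate block 1 MBD bin was called in threat against naive at 24 h. The single bin of threat against place at 24 h became 2 with 5000 bases on both sides, 0 at 2 RPKM, 0 at 0.5 RPKM without input ratio, 0 by edgeR, and 0 to 2 with a library left out. At 1 h the range was 0 to 7 in threat against naive and 0 to 1 in threat against place.

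The block also ended the calls of Irs2 and Ddit4 in place 1 h and of Tsc1 at 24 h in both groups (adjusted p of 0.1002, 0.247, 0.0829 and 0.0509) and called Rheb in both (0.00858 and 0.0173).

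Sign changes against naive replicates 1 to 4 were, in threat 1 h, Rps6kb2 (-0.24), Mtor (0.011), Tsc1 (-0.016), Tsc2 (-0.078), Eif4ebp1 (-0.050) and Rheb (0.061), and in place 1 h Rps6kb2 (-0.29), Mtor (0.0048) and Tsc2 (-0.17). Against replicates 5 to 9 they were Rheb in place 1 h (-0.0078), Mtor in threat 24 h (-0.0086), and Irs2 (-0.044) and Eif4ebp1 (0.060) in place 24 h. Quantile normalization turned Tsc1 (-0.021) and Rheb (0.012) in threat 1 h against naive, Mtor (-0.014) and Rheb (-0.0025) between threat and place at 1 h and 24 h, Rheb in place over time (-0.0016) and the Eif4ebp1 interaction (0.0075). Median-ratio scaling turned Mtor between threat and place at 1 h (-0.010), and array weights turned Rheb at 24 h (-0.013) and the Irs2 interaction (-0.0078). The block turned Rheb in threat 1 h (0.012) and Tsc2 in place 1 h (-0.00033) against naive, Mtor (-0.0046) and Rheb (-0.0028) between threat and place, and the Eif4ebp1 interaction (0.015). Without threat 1 h replicates 4 and 7 Sesn1 between threat and place at 1 h turned to 0.017.

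With 1 library left out, ranges that crossed 0 were, against naive, Rheb (-0.032 to 0.012) and Tsc1 (-0.00028 to 0.036) in threat 1 h, Tsc2 in place 1 h (-0.0064 to 0.091) and Sesn1 in threat 24 h (-0.014 to 0.079). Between threat and place they were Mtor (-0.0084 to 0.023), Rps6kb2 (-0.025 to 0.087) and Sesn1 (-0.069 to 0.019) at 1 h and Rheb at 24 h (-0.012 to 0.012). In place over time they were Mtor (-0.036 to 0.0025) and Sesn1 (-0.010 to 0.077), and in the interaction Irs2 (-0.0050 to 0.046), Tsc1 (-0.077 to 0.016) and Eif4ebp1 (-0.073 to 0.043).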
